A study of Mus musculus with 9 samples.

Results

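Gad1, Gad2, Slc32a1, Vip, Sst, Npy and Gabrd are 7 genes of inhibitory neurons and of the synapses they make, followed here across 3 Gap43 genotypes in layer IV of the mouse barrel cortex. Every probe set that the platform annotation names for one of these genes was taken, which gave 9 of the 22690 probe sets on the array and 7 of 12393 genes with a symbol of their own there. Of these, 7 passed the filter on low signal, 1 for each gene. The other 2, second probe sets of Gad1 and Slc32a1, fell below it and are given separately.

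The samples were 9 C57BL/6 mice at postnatal day 5, with 3 wild-type (WT), 3 heterozygous (HZ) and 3 knockout (KO) for Gap43. Gap43 encodes a growth cone protein of extending axons. Layer IV of the barrel cortex, the whisker map of the somatosensory cortex, was cut out by laser microdissection, and its RNA was amplified with an added round before hybridization to 1 array per mouse. All groups shared strain, age and tissue, and the labels name no treatment. The labels state neither which part of Gap43 was deleted nor whether the deletion was limited to a cell type.

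GABA is the main inhibitory transmitter of the mature cortex. The enzymes GAD67 (Gad1) and GAD65 (Gad2) make it from glutamate, the transporter VGAT (Slc32a1) loads it into vesicles, and chloride channels built from GABA-A subunits, the delta subunit (Gabrd) among them, respond to it. Cortical interneurons fall into classes partly by the peptides they carry: Vip marks cells that mainly contact other interneurons, Sst marks cells that contact dendrites, and Npy occurs in several classes. At this age the interneurons of the cortex are still maturing.

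No member passed the test in any comparison. Vip and Gabrd, at 67.8% and 64.9% of the mean wild-type signal in the knockouts, were the members whose KO arrays all lay below all WT arrays. The same held for 5.83% of all probe sets. Gad1 averaged 72.3% of the wild-type signal in the knockouts with overlapping arrays, and Sst was lowest in the heterozygotes. Gad2, Slc32a1 and Npy showed no separation from wild-type larger than the spread between arrays, apart from a small Gad2 gap that depended on scaling.

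Vip and Sst are shown with the bases just before their starts, because Vip had the clearest separation of genotypes and Sst is the peptide gene whose lowest mean was in HZ. Both are known as genes that respond to cyclic AMP. The windows hold 120 bases before the start, from RefSeq on build GRCm38.p6, read 5′ to 3′ on the gene's strand, at chr10:5639098-5639217 on the plus strand for Vip and chr16:23890845-23890964 on the minus strand for Sst. Capitals mark the letters TGACG or TGACGTCA, the cyclic AMP response element, and TATAAA, the TATA box.
Vip: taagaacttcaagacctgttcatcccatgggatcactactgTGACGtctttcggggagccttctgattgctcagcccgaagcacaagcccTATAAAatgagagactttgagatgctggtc
Sst: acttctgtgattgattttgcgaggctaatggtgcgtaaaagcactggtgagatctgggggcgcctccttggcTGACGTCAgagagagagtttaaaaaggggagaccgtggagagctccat

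The Sst window held the whole element TGACGTCA, and the Vip window held the shorter TGACG together with TATAAA. Searched on both strands of the longer windows in the RefSeq promoter table, which run past the start, TGACGTCA occurred in 1.79% of 32851 promoters, TGACG, which every TGACGTCA also contains, in 20.8%, and TATAAA in 13.6%. Promoters of 6 members were in the table. Among them Sst held TGACGTCA, Gad2, Sst and Vip held TGACG, and Gad1 and Vip held TATAAA. These matches describe the letters of the windows, and binding was not measured.

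The arrays gave signals scaled to the same trimmed mean of 500.2 on every array. Gap43 signal was 4294 to 7089 on the WT arrays, 4389 to 5039 on the HZ arrays and 979 to 1930 on the KO arrays. It was the 1 probe set past the threshold in KO against WT (limma, adjusted p = 0.0173) and in KO against HZ (adjusted p = 0.0362), and the residual signal in the knockouts did not reach 0. Of the interneuron markers, 11 were tested, and Dlx5, Dlx6 and Erbb4 lay below the filter. Rorb, a marker of layer IV neurons, was detected in all genotypes, with mean signals of 529.7 in WT, 609.2 in HZ and 327.6 in KO. The 3′/5′ ratio of control transcripts, a measure of RNA integrity and amplification, ran from 9.94 to 26.4, with HZ 2 standing apart at 26.4. Xist and a Y-linked gene gave 2 females and 1 male in each genotype.

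Gad1, the enzyme behind most cortical GABA, had signals of 1358, 890 and 813 in the WT mice, 962, 1197 and 796 in the HZ mice and 482, 907 and 825 in the KO mice. KO 1 was the lowest of all arrays, while KO 2 and KO 3 lay inside the wild-type range. The means were 1021 ± 295 in WT, 985 ± 201 in HZ and 738 ± 226 in KO (SD, n = 3 each). In KO against WT the log2 difference was -0.47 with a standard error of 0.26 and a 95% interval from -1.03 to 0.08 (limma, adjusted p = 0.688). HZ against WT gave -0.03 (adjusted p = 0.982) and KO against HZ gave -0.44 (adjusted p = 0.732). All log2 differences here are on the scale of log2(signal + 16), which understates the change of dim probe sets.

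The Gad1 difference leaned on single mice. It was -0.20 without KO 1 and -0.25 without WT 1, and reached -0.64 without KO 2. The second Gad1 probe set averaged 87.7 in WT, 89.7 in HZ and 96.0 in KO and went the other way, by 0.12 in KO against WT in a fit without the filter. Its arrays overlapped in all comparisons.

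Gad2, the enzyme concentrated at nerve terminals, had signals of 202, 195 and 209 in WT, 283, 195 and 240 in HZ and 218, 209 and 229 in KO. Every KO array lay above every WT array, but the gap between the highest WT and the lowest KO was below 1 signal unit, and the groups overlapped once arrays were scaled by quantiles or to the same median. The log2 difference was 0.11 in KO against WT (limma, adjusted p = 0.904), 0.22 in HZ against WT (adjusted p = 0.827) and -0.11 in KO against HZ (adjusted p = 0.929). Pooled over genotypes, Gad2 varied least of the members, with an SD of 3.44% of the mean in WT, 18.5% in HZ and 4.59% in KO, against 28.9%, 20.4% and 30.6% for Gad1.

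Slc32a1, the vesicle loader shared by all GABA neurons, had signals of 1067, 1229 and 602 in WT, 1022, 885 and 656 in HZ and 625, 901 and 947 in KO. WT spread widest, and its arrays included both the lowest and the highest of the series, with the HZ and KO arrays in between. Means were 966 ± 326, 854 ± 185 and 824 ± 174 in WT, HZ and KO (SD, n = 3 each), and the log2 difference was -0.19 in KO against WT (limma, adjusted p = 0.888), with a 95% interval from -0.75 to 0.38. HZ against WT had an adjusted p of 0.921 and KO against HZ a difference of -0.05 (adjusted p = 0.976). The second Slc32a1 probe set was near the bottom of the scale, with means of 14.1, 16.3 and 24.0, and its arrays overlapped.

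**Figure D1:**
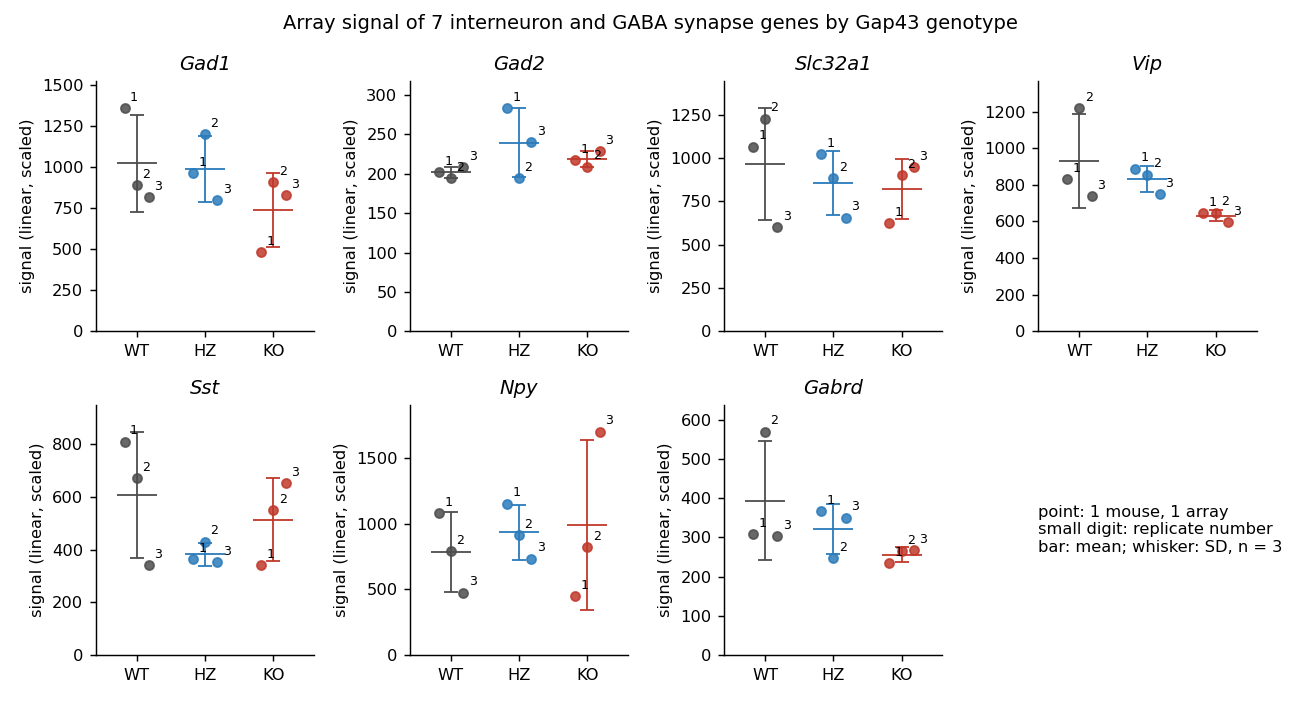
Array signal (linear, scaled to the same trimmed mean, each vertical axis starting at 0) of the 7 genes on each of the 9 arrays, by genotype; points are single mice with their replicate number, and the horizontal mark and bar give the mean and SD of 3 mice. The KO points of Vip (595 to 648) and Gabrd (234 to 268) lie below all WT points of the same gene, while the other genes overlap or, for Gad2, nearly touch.

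Vip, the peptide of interneurons that inhibit other interneurons, had signals of 831, 1221 and 737 in WT, 888, 856 and 751 in HZ and 648, 648 and 595 in KO. The KO mice lay close together and below every WT and every HZ mouse, under the deposited scaling and under quantile or median scaling. WT 2 was far above all other arrays. The means were 930 ± 257 in WT, 832 ± 71.8 in HZ and 630 ± 30.4 in KO (SD, n = 3 each), so that the knockouts averaged 67.8% of wild-type.

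In KO against WT the log2 difference of Vip was -0.52, or 1.43-fold lower, with a 95% interval from -0.92 to -0.11 (limma, unadjusted p = 0.0158, adjusted p = 0.537). In KO against HZ it was -0.39, with an interval from -0.79 to 0.01 (unadjusted p = 0.0571, adjusted p = 0.662), and in HZ against WT it was -0.13 (adjusted p = 0.892). The exact 2-sided permutation test gave p = 0.1 for the knockouts against either other genotype, the smallest value that 3 arrays against 3 allow. Without WT 2 the KO against WT difference was -0.31 (limma, adjusted p = 0.512), still with every KO below every remaining WT array. An unadjusted p below 0.05 in the lower direction occurred for 3.59% of all 13576 probe sets in this comparison, and every KO array below every WT array for 5.83%. In KO against HZ, 7.35% of probe sets had every KO array lower.

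Sst, the peptide of dendrite-targeting interneurons, had signals of 810, 671 and 342 in WT, 363, 430 and 351 in HZ and 341, 548 and 653 in KO. The HZ mice were tightly grouped near the low end of both other genotypes, whose mice spread widely. Means were 608 ± 241, 382 ± 42.5 and 514 ± 159 in WT, HZ and KO (SD, n = 3 each). The largest Sst difference was -0.57 in HZ against WT, with a 95% interval from -1.20 to 0.06 (limma, adjusted p = 0.790), and it was -0.32 without WT 1 and -0.93 without WT 3. KO against WT gave -0.20 (adjusted p = 0.893) and KO against HZ gave 0.37 (adjusted p = 0.817). All 3 comparisons had overlapping arrays.

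Npy, a peptide carried by several interneuron classes, had signals of 1083, 790 and 475 in WT, 1155, 915 and 735 in HZ and 449, 820 and 1704 in KO. The KO group held both the lowest and the highest array of the series, 3.80-fold apart. Means were 783 ± 304, 935 ± 210 and 991 ± 645 (SD, n = 3 each), with log2 differences of 0.21 in KO against WT (limma, adjusted p = 0.916), 0.30 in HZ against WT (adjusted p = 0.879) and -0.10 in KO against HZ (adjusted p = 0.970). The 95% interval for KO against WT ran from -0.65 to 1.06. Leaving out KO 3 turned that difference to -0.28, and leaving out WT 3 turned it to -0.11.

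Gabrd, the delta subunit of GABA-A receptors outside synapses, had signals of 309, 570 and 303 in WT, 367, 247 and 351 in HZ and 234, 265 and 268 in KO. All KO arrays lay below all WT arrays under the deposited, quantile and median scaling, but HZ 2 at 247 lay within the KO range. Under the deposited scaling, 5.83% of all probe sets had every KO array below every WT array. The means were 394 ± 153, 321 ± 64.9 and 256 ± 19.2 in WT, HZ and KO (SD, n = 3 each), and WT 2 was again the highest array.

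The log2 difference of Gabrd was -0.54 in KO against WT, or 1.45-fold lower, with a 95% interval from -1.05 to -0.02 (limma, unadjusted p = 0.0428, adjusted p = 0.614; exact 2-sided permutation p = 0.1). HZ against WT gave -0.24 (adjusted p = 0.854) and KO against HZ gave -0.30 (adjusted p = 0.827). Without WT 2 the KO against WT difference was -0.25 (adjusted p = 0.681). For both Vip and Gabrd the highest wild-type array was therefore the same mouse, and leaving it out lowered both differences by more than 1.5 times.

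Across the 7 genes, 5 differences were below 0 and 2 above in KO against WT (median -0.20), 5 and 2 in HZ against WT (median -0.13) and 6 and 1 in KO against HZ (median -0.11). Over all probe sets the medians were 0.02, 0.03 and -0.02, and 46.3%, 44.7% and 53.4% of probe sets lay below 0. These comparisons share arrays, the WT arrays in the first pair and the KO arrays in KO against WT and KO against HZ. Past the adjusted threshold were 0 of 7 members in each comparison, against 0.00737% of all probe sets in KO against WT, 0% in HZ against WT and 0.00737% in KO against HZ. At an unadjusted p below 0.05 the count was 2 of 7 in KO against WT, both lower, where 3.59% of all probe sets were lower. It was 0 of 7 in the other comparisons. Of all 13576 probe sets, 1090 reached that p in KO against WT, 844 in HZ against WT and 1049 in KO against HZ. In bulk tissue, fewer cells of a type and less RNA per cell cannot be told apart.

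Counts of the other direction were read against the same background. In KO against WT, 4.43% of probe sets were higher at an unadjusted p below 0.05, and 7.83%, Gad2 among them, had every KO array above every WT array. In HZ against WT, 2.16% were lower and 4.06% higher at that p, and 4.39% and 8.51% had every HZ array lower or higher, with no member among them. In KO against HZ, 3.76% were lower and 3.96% higher at that p, and 6.67% had every KO array higher, also with no member among them.

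**Figure D2:**
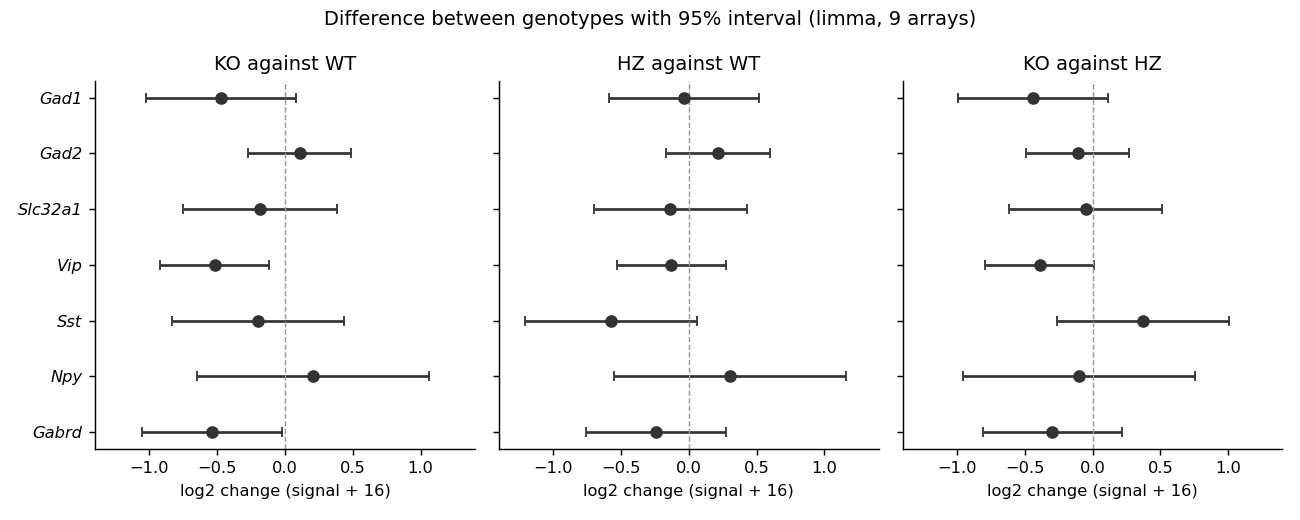
Log2 difference (signal + 16) of the 7 genes in KO against WT, HZ against WT and KO against HZ; points are the limma estimates over 9 arrays and bars the 95% intervals. Intervals of Vip (-0.92 to -0.11) and Gabrd (-1.05 to -0.02) in KO against WT lie below 0, all others cross 0, and no adjusted p was below 0.537.

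The members differed in how much the arrays of one genotype varied. With 1 array per mouse, differences between mice cannot be told apart from those of dissection and amplification. The residual SD on the log2 scale was 0.67 for Npy, 0.46 for Sst, 0.40 for Slc32a1, 0.39 for Gad1, 0.34 for Gabrd, 0.23 for Vip and 0.15 for Gad2, against a median of 0.23 over all probe sets tested. Npy exceeded 98.4% of probe sets and Sst 94.0%, so both peptides were among the most variable transcripts between arrays, while Gad2 exceeded 16.4%. The highest array stood over the lowest by 3.80-fold for Npy, 2.82-fold for Gad1, 2.44-fold for Gabrd, 2.38-fold for Sst, 2.05-fold for Vip, 2.04-fold for Slc32a1 and 1.45-fold for Gad2. These are ratios within each probe set, since signals of different probe sets have no common scale.

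Part of that spread ran along arrays. KO 1 and WT 3 lay below the mean of the 9 arrays for all 7 genes, with medians of -0.45 and -0.12 log2 units. WT 1 and WT 2 lay above it for 5 of 7 genes, with medians of 0.31 and 0.48, and HZ 1 for 6 of 7. KO 3 had the highest Npy, 1.01 above its mean, and also the lowest Vip, 0.38 below. Arrays below the mean for all 7 genes thus occurred in both WT and KO, though some of these gaps were very small. KO 1 was at -0.0061 for Gad2, and WT 3 at -0.0421 for Gabrd, -0.0626 for Gad2 and -0.0796 for Vip. The KO arrays, and likewise WT 3, HZ 2 and HZ 3, were above the mean for no more than 4 of 7 genes.

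**Figure D3:**
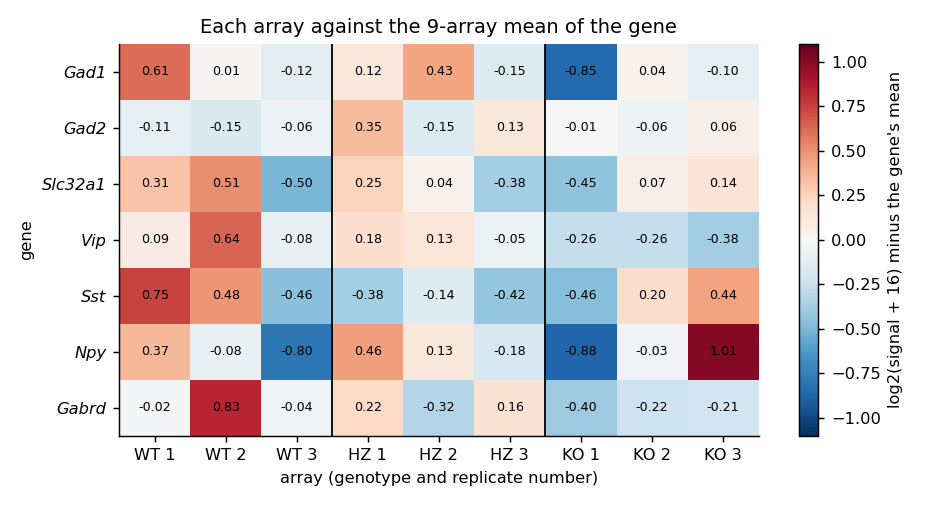
Each array's log2(signal + 16) minus the gene's mean over 9 arrays, for the 7 genes in rows and the arrays in columns ordered by genotype; colour gives the sign and size. WT 3 and KO 1 are below the mean in every row, and KO 3 holds the highest value, 1.01 for Npy.

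Pairs of members were compared over the 9 arrays, 21 pairs in all. Vip and Gabrd had Pearson r = 0.83 (exact permutation p = 0.0101, Benjamini-Hochberg p = 0.212) and Spearman rho = 0.67 (exact permutation p = 0.0589, Benjamini-Hochberg p = 0.228). Without WT 2 and KO 3, the arrays farthest from the median of Vip, r was 0.52, and within genotypes r was 0.73. Slc32a1 and Sst had r = 0.77 (exact permutation p = 0.0220, Benjamini-Hochberg p = 0.231) and rho = 0.87 (exact permutation p = 0.00451, Benjamini-Hochberg p = 0.0947). Without WT 3 and KO 1 r was 0.64, and within genotypes it was 0.85. None of the 21 pairs passed the adjustment.

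Gad1 and Gad2, which make the same product, did not move together (r = -0.20, exact permutation p = 0.570, Benjamini-Hochberg p = 0.756). Sst and Npy, which many of the same cells carry, had r = 0.59 (exact permutation p = 0.0988, Benjamini-Hochberg p = 0.321) and rho = 0.65 (exact permutation p = 0.0666, Benjamini-Hochberg p = 0.228). Within genotypes their r was 0.85, and without WT 1 and WT 2 it was 0.72. The Vip and Npy pair, which differed in KO 3, had r = 0.0040 over all arrays and 0.72 without WT 2 and KO 3.

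Among 8496 other genes tested, those most like each member over the 9 arrays were listed by Pearson r, as a description without a test. Gad1 was nearest to Bnip3 (0.97), Rab3b (0.95) and Tmem183a (0.93). Gad2 was nearest to Creld1 (0.96), Uba3 (0.95) and Dbnl (0.94), and Slc32a1 to Galnt1 (0.96), S100a10 (0.96) and Spon1 (0.92). Vip was nearest to C1qtnf4 (0.96), Mrps12 (0.93) and Rasl10a (0.92). C1qtnf4 had mean signals of 1847 in WT and 1154 in KO, and Rasl10a of 954 and 515.

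Sst was nearest to Slc8a1 (0.92), Ldb2 (0.91) and Rspo2 (0.91), Npy to Stau2 (0.90), Tmeff2 (0.90) and Pip4k2a (0.90), and Gabrd to Tcta (0.97), Pink1 (0.94) and Cgref1 (0.94). Tcta averaged 1756 in WT and 1191 in KO. All these genes share the 9 arrays and their scaling with the members.

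Other genes of inhibitory neurons were followed in 9 lists of 100 genes, of which 74 had a probe set named and 51 were tested. Apart from the members, 44 genes were tested. In KO against WT 17 of them were below 0 and 27 above, with 1 lower and 4 higher at an unadjusted p below 0.05 (3.59% and 4.43% of all probe sets) and 0 past the adjusted threshold. In HZ against WT 15 were below and 29 above, with 1 lower and 1 higher at that p (2.16% and 4.06% of all) and 0 adjusted. KO against HZ gave 23 below and 21 above, with 2 lower and 2 higher (3.76% and 3.96% of all) and 0 adjusted.

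The list of GABA-A receptor subunits had 6 tested genes of 18. Gabrd was the single one below 0 in KO against WT (2 of 6 were below under quantile and 3 of 6 under median scaling, and 4 of 6 without WT 1). Its partners in the list were near 0, with Gabrb1 at 0.03, Gabrb2 at 0.02 and Gabrg1 at 0.07, and Gabrp at 0.10. Gabre, the epsilon subunit, averaged 121 ± 6.02 in WT and 156 ± 30.2 in KO (SD, n = 3 each), with a log2 difference of 0.31 (limma, adjusted p = 0.740). For Gabre every KO array lay above every WT array, as for 7.83% of all probe sets. In HZ against WT, Gabrg1 was 0.31 higher (adjusted p = 0.790). Gabra2, Gabra3, Gabra6, Gabrg3, Gabrq, Gabrr1 and Gabrr2 lay below the filter.

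Around the receptor, the GABA-B subunit Gabbr1 differed by -0.07 in KO against WT (limma, adjusted p = 0.924), while its 2 dimmer probe sets had 0.25 and 0.33. The GABA-degrading enzyme Abat differed by -0.11 (adjusted p = 0.937), and its second probe set by 0.26. Among 7 scaffold and adhesion genes tested, 4 were below 0 and 3 above. Gabarap, which binds GABA-A receptors and acts in their traffic, had means of 1224 ± 230 in WT, 1500 ± 106 in HZ and 985 ± 146 in KO (SD, n = 3 each). Every KO array of Gabarap lay below every HZ array, as for 7.35% of all probe sets. Gabarap differed by -0.30 in KO against WT (adjusted p = 0.712), and its relative Gabarapl1 by -0.32 (adjusted p = 0.731).

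The chloride transporters set whether GABA excites or inhibits, because Slc12a5 (KCC2) extrudes chloride and Slc12a2 (NKCC1) takes it up. Slc12a5 averaged 3382 ± 68.0 in WT, 3401 ± 218 in HZ and 2985 ± 118 in KO (SD, n = 3 each). Every KO array lay below every WT and every HZ array, under all 3 scalings. Over all probe sets, 5.83% had every KO array below every WT array and 7.35% below every HZ array. The log2 difference of Slc12a5 from WT was -0.18 (limma, adjusted p = 0.740). Slc12a2 differed by 0.20 in KO against WT (adjusted p = 0.858), with overlapping arrays.

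Of 12 peptide and calcium-binding genes tested, 6 were below 0 and 6 above in KO against WT. Calb2, the calcium-binding protein calretinin found in many Vip cells, had signals of 959, 855 and 384 in WT, 966, 1242 and 507 in HZ and 316, 334 and 467 in KO. The KO arrays were all below the HZ arrays, as for 7.35% of all probe sets, and KO 3 lay above WT 3. The log2 difference was -0.87 in KO against WT (limma, adjusted p = 0.580) and -1.18 in KO against HZ (adjusted p = 0.444). Calb1, calbindin, was lower in HZ, with means of 865 ± 272 in WT, 496 ± 188 in HZ and 890 ± 396 in KO (SD, n = 3 each) and a log2 difference of -0.79 in HZ against WT (adjusted p = 0.789). Pvalb, which marks fast-spiking interneurons later in life, lay below the filter.

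The transcription factors listed for interneurons had mostly positive differences, and in this bulk tissue their signal was not assigned to a cell type. Of 12 tested, 9 were above 0 in KO against WT with a median of 0.23, and 8 of 12 under median scaling with a median of 0.17. Without WT 2, 7 of 12 were above 0. HZ against WT, which shares the WT arrays, also had 9 of 12 above 0 (median 0.16), and KO against HZ had 7 of 12 (median 0.02). At an unadjusted p below 0.05, 4 of 12 were higher (2 under quantile or median scaling) and 0 lower, where 4.43% and 3.59% of all probe sets were, and 46.3% of all probe sets lay below 0 against 3 of 12 here. Npas3 averaged 130 ± 32.6 in WT, 122 ± 25.9 in HZ and 217 ± 12.1 in KO (SD, n = 3 each), with a log2 difference of 0.69 from WT (limma, adjusted p = 0.518). Each KO array of Npas3 exceeded every other array. Over all probe sets, 7.83% had every KO array above every WT array and 6.67% above every HZ array. Sox6, which acts in Sst and Pvalb cells, was 0.53 higher (adjusted p = 0.537), Nr2f2 0.85 higher (adjusted p = 0.622) and Dlx2 0.40 higher (adjusted p = 0.620), none past the threshold. The lowest mean signal that the filter kept was 118. Nr2f2 averaged 102 in WT, below that limit, and 156 in HZ and 179 in KO, so it passed through the groups where it was higher. Npas3 and Dlx2 (136 in WT, 139 in HZ and 185 in KO) lay near the limit in WT and HZ. The count of higher factors therefore includes probe sets near the filter limit. Nr2f2 rested on WT 3: its WT signals were 157, 116 and 33.5 and its KO signals 239, 113 and 184, which overlap, and without WT 3 the difference was 0.31 (adjusted p = 0.889). The lowest differences in the list were -0.40 for Satb1 (adjusted p = 0.665) and -0.30 for Dlx1 (adjusted p = 0.833). Lhx6, a factor of Sst and Pvalb cells, differed by 0.32 (adjusted p = 0.728).

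Among 7 receptors tested, 3 were below 0 and 4 above in KO against WT. The Npy receptors Npy5r and Npy1r differed by 0.38 (limma, adjusted p = 0.692) and 0.36 (adjusted p = 0.728) in that comparison, where the second Npy5r probe set had -0.41. In HZ against WT, Npy5r differed by 0.59 (adjusted p = 0.789), while the second probe set had -0.36. For the brighter Npy5r probe set every HZ array lay above every WT array, as for 8.51% of all probe sets. The Vip receptors Vipr1 and Vipr2 lay below the filter.

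**Figure D4:**
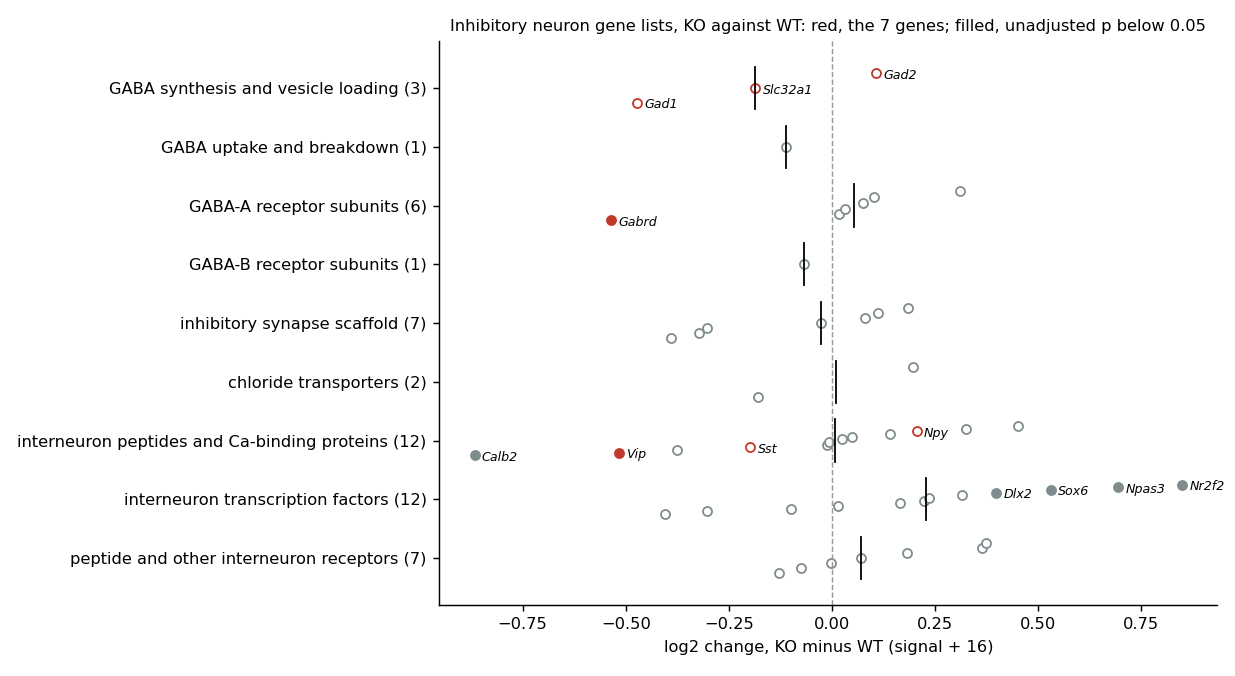
Log2 difference in KO against WT (signal + 16) of the 51 tested genes, 1 point per gene, in rows by list; red points are the 7 genes followed here filled points had an unadjusted p below 0.05, and black bars are list medians. Transcription factors lie mostly right of 0 (9 of 12), and the lowest points are Calb2 at -0.87, Gabrd at -0.54 and Vip at -0.52.

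Markers of other cells in the dissected tissue were summed per array. A sum follows its brightest probe sets. The sum of 9 astrocyte markers was 20097 to 25606 in WT, 21198 to 21506 in HZ and 16141 to 23018 in KO, with Fabp7, its brightest, at means of 11170 in WT and 11560 in KO. Of 8 astrocyte markers tested, 6 were below 0 and 2 above in KO against WT (median -0.33). At an unadjusted p below 0.05, 4 of these 8 were lower, where 3.59% of all probe sets were, and 0 passed the adjusted threshold. Mean signals in WT and KO were 4497 and 2185 for Gja1, 2634 and 1604 for Aldoc, 225.7 and 108.0 for S100b and 1408 and 1075 for Slc1a3. They were 513.8 and 436.5 for Aldh1l1, while KO had the higher mean for Aqp4 (1443 and 1477) and Gfap (122.8 and 133.4). The sum of 9 glutamatergic neuron markers was 6491 to 8856 in WT, 8187 to 9733 in HZ and 6920 to 8818 in KO. That sum joins genes of both directions: of 8 tested, 4 were below 0 and 4 above in KO against WT (median -0.05). At an unadjusted p below 0.05, 1 was lower and 1 higher (3.59% and 4.43% of all probe sets), with 0 past the adjusted threshold. Mean signals in WT and KO were 529.7 and 327.6 for Rorb and 1677 and 2615 for Neurod6. For 5 markers of striatal neurons, which also make GABA, the sum was 2985 to 5645 in WT, 3909 to 5189 in HZ and 5513 to 5718 in KO. Ppp1r1b and Isl1, defining genes of that list, lay below the filter. Foxp1 made up most of that sum, with means of 3543 in WT and 5246 in KO, and Rasd2 of the same list went the other way, from 333.8 to 157.4. On WT 2, the array with the highest Vip and Gabrd, the microglial sum was 2967 against 1318 to 1785 on the other 8 arrays, and the oligodendrocyte-lineage sum was 7194 against 3626 to 6060. Mean oligodendrocyte-lineage sums were 5820 in WT, 5510 in HZ and 4531 in KO. The lower KO sum followed its bright genes Cnp (1852 in WT, 912.5 in KO) and Olig1 (2111 and 1529). Of 7 oligodendrocyte-lineage markers tested, 2 were below 0 and 5 above in KO against WT (median 0.11). At an unadjusted p below 0.05, 2 of these 7 were lower, as 3.59% of all probe sets were, and 0 passed the adjusted threshold. For 5 markers of cycling progenitors, the sum was 1389 to 1657 in WT, 1617 to 1715 in HZ and 1783 to 1926 in KO. Every KO array thus lay above every WT and every HZ array. In KO against WT, 4 of these 5 genes were above 0 and 1 below (median 0.305). At an unadjusted p below 0.05, 1 of them was higher, where 4.43% of all probe sets were, and 0 passed the adjusted threshold. The part of these markers in the differences of Vip and Gabrd was not tested.

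Within sexes, Vip in KO against WT differed by -0.68 over 2 females of each genotype and by -0.18 in the 1 male pair, and Gabrd by -0.63 and -0.35. Gad1 differed by -0.34 and -0.74, Npy by 0.35 and -0.08. The male pair has no replicates, and no test was made within a sex.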

How the data were processed

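Each of 9 mice gave 1 array. The deposited values are linear signal intensities, which the authors made with Affymetrix Expression Console and MAS5, as the submitters' processing notes list (versions not given in the sources used here), and they share a mean of 500.2 after trimming 2% at each end. Genes came from the platform annotation, which named 1 gene for 20380 probe sets and several for 691. After 64 control probe sets were left out, the 60% with the highest mean log2(signal + 16) were kept (13576 probe sets, 8503 genes). Each gene was represented by its brightest probe set. limma 3.58.1 in R 4.3.3 was fitted to log2(signal + 16) on all 9 arrays, with an intensity trend, 2-sided, and adjusted by Benjamini-Hochberg over all probe sets kept at 0.05. The fit was tested on simulated data. Sex was read from Xist and a Y-linked gene. The labels do not say whether replicate numbers mark a shared litter or day, so no block was fitted in the main model. The number of arrays limits the precision.

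The members and lists were chosen with earlier results of these data known, so the KO against WT values of Vip and Gabrd are no independent support. Genes named were the members, up to 2 per list with the smallest p in KO against WT and 1 in HZ against WT, and the 3 genes most like each member. Other genes were named after their values were seen. Arrays are from different mice per the labels. Alternatives covered the pseudocount, filter, scaling, trend, array weights, replicate number, 3′/5′ ratio, sex, array subsets and second probe sets.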

Additional observations from a re-analysis of the deposited data

How the results depend on the processing

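No member passed the threshold under any alternative: the smallest adjusted p over 426 alternative values was 0.409 (limma, Vip with array weights), and 396 kept the direction. Of 440 values for other listed genes, 430 kept it. Alternatives for the listed genes and the second probe sets were chosen after seeing the data. Direction turned with array weights for Slc32a1 (0.10 in KO against WT, 0.069 in HZ against WT, 0.035 in KO against HZ), Sst (0.11 in KO against WT), Npy (0.055 in KO against HZ), Vip and Gabrd (0.013 and 0.049 in HZ against WT) and Gabbr1 (0.029 in KO against WT, 0.070 in HZ against WT), and with median scaling for Slc12a2 (-0.030 in HZ against WT). Second probe sets gave 0.12, 0.026 and 0.093 for Gad1 and 0.40, 0.075 and 0.33 for Slc32a1 in KO against WT, HZ against WT and KO against HZ. The cause was not tested.

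With single arrays left out, KO against WT ranged from -0.49 to 0.016 for Slc32a1, -0.56 to 0.064 for Sst, -0.28 to 0.66 for Npy and -0.15 to 0.084 for Gabbr1. HZ against WT ranged from -0.18 to 0.19 for Gad1, -0.44 to 0.067 for Slc32a1, -0.28 to 0.082 for Vip, -0.0090 to 0.57 for Npy, -0.39 to 0.048 for Gabrd, -0.031 to 0.60 for Abat, -0.14 to 0.096 for Gabbr1 and -0.059 to 0.26 for Slc12a2. KO against HZ ranged from -0.24 to 0.012 for Gad2, -0.23 to 0.13 for Slc32a1 and -0.59 to 0.36 for Npy.

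Over all probe sets, calls in KO against WT numbered 1, and 0 without the filter, without the trend or with the 6 arrays of the pair, 5 with array weights and 0 to 2 with single arrays left out. HZ against WT gave 0 calls in limma (844 at an unadjusted p below 0.05), 3 with array weights and 0 to 2 with arrays left out. KO against HZ gave 1 call, and 0 without the filter, without the trend, with quantile or median scaling or with the 6 arrays of the pair, 3 with the ratio of 3′ to 5′ control signal in the model and 0 to 2 with arrays left out. The replicate block gave 2 calls in KO against HZ, 1 in KO against WT and 0 in HZ against WT. Deviations of same-numbered arrays correlated at -0.26 to 0.11 over 9 pairs, and those of differently numbered arrays at -0.15 to 0.20. The labels do not say whether a number marks a shared litter or day, and these correlations cannot decide it.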

Other observations

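Sst was also set against the mean of Gad1 and Slc32a1 on the same array, on the log2 scale and centred over the 9 arrays, a measure chosen after the data were seen and given without a test. It was -0.56 to -0.16 on the HZ arrays, -0.15 to 0.29 on the WT arrays and 0.14 to 0.42 on the KO arrays. The HZ arrays lay below all others, though the highest HZ array (-0.1600) and the lowest WT array (-0.1517) nearly touched. Sst signal alone overlapped in all comparisons, and the share of all probe sets that separate on this measure was not computed. For Npy it was -0.49 to -0.094 in WT, -0.11 to 0.27 in HZ and -0.23 to 0.99 in KO, with overlap. The same measure overlapped between genotypes for Vip (-0.37 to 0.37 in WT, -0.11 to 0.21 in HZ, -0.40 to 0.39 in KO) and for Gabrd (-0.48 to 0.57, -0.56 to 0.42 and -0.28 to 0.25).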
